A study of Mus musculus with 16 samples.

Results

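The genes described here are 10 genes of the KEAP1-NRF2 pathway and the thioredoxin system in primary mouse hepatocytes: *Nfe2l2*, which encodes NRF2, *Keap1*, *Sqstm1*, *Nqo1*, *Hmox1*, *Osgin1*, *Srxn1*, *Txnrd1*, *Txn1* and *Prdx1*. They were chosen by symbol from the gene rows of the count table, where each symbol was found once, so that they are 10 of 55450 genes, and all 10 passed the filter on low genes (a mean of 1 CPM, which are counts scaled to the size of the library) that left 11675 genes to test. The hepatocytes came from wild-type C57BL/6J mice, adult and male per the methods of the study, and were cultured overnight in 4 ways: untreated, with 10 mM sodium itaconate, with a chemically defined mixture of fatty acids and cholesterol diluted 10-fold (lipid), or with lipid and itaconate together. Each treatment had 4 bulk RNA-seq libraries, lettered A to D in the labels, which do not say whether the letters were separate mice, so the p-values measure the spread between these libraries, which may be technical. All cultures, the untreated ones included, had serum, insulin, transferrin and selenium in the medium. The hepatocytes had been isolated by perfusion and low-speed centrifugation, and cells other than hepatocytes were not removed by a sort.

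NRF2 is a transcription factor that KEAP1 binds in the cytosol and passes to a ubiquitin ligase, so that it is degraded in unstressed cells. When electrophiles or oxidants modify cysteines of KEAP1, NRF2 accumulates, pairs with small MAF proteins and binds antioxidant response elements beside genes of detoxification, glutathione and thioredoxin metabolism. The control of NRF2 is therefore largely on the protein, which RNA-seq does not measure. Itaconate derivatives are known to alkylate cysteines of KEAP1, and the liver, which handles many reactive compounds, is a tissue in which the pathway is well studied. Thioredoxin reduces disulfides in proteins and in peroxiredoxins and is itself reduced by thioredoxin reductase at the expense of NADPH, while sulfiredoxin repairs overoxidized peroxiredoxins.

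The core of the antioxidant response element was looked for as TGACNNNGC, on either strand, in the RefSeq promoter windows of the members, which run from 250 bases before to 50 bases after a start site (GRCm38.p6). Of the 10 genes, 9 had a window (all but *Hmox1*), and 4 of these held the core (44.4%), against 17.2% of the 8991 tested genes with a window. Counted by window, since *Txnrd1* has several, it was 4 of 11 (36.4%) against 12.4% of all 32851 windows. These stretches are shown because they are the short sequences that NRF2 and its MAF partners are known to bind, and the 4 genes that hold one differed in how they moved. Each is printed 5′ to 3′ on the strand of its gene, with the 9 bases of the core in capitals, which read as GCNNNGTCA where the core lies on the other strand.
*Nfe2l2*: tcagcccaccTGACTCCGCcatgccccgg
*Prdx1*: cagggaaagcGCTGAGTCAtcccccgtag
*Txnrd1*: ctggatttttGCTTTGTCAttctgacacg
*Srxn1*: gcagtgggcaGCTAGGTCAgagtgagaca
The stretch of *Nfe2l2* lies on the minus strand at chr2:75704885-75704913, with the core from base -240 to -232 of the start site. That of *Prdx1* (chr4:116685456-116685484) has the core at -133 to -125, and that of *Txnrd1* (chr10:82859104-82859132) at -92 to -84 of one of its start sites, both on the plus strand. In *Srxn1* (chr2:152105542-152105570, plus strand) the core lies behind the start site, at bases 29 to 37. A match is a description of these letters and not a site shown to be bound, and the lack of one in the windows of *Osgin1*, *Keap1*, *Nqo1*, *Txn1* and *Sqstm1* says only that the letters are not in those windows.

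All 10 are protein-coding genes. In the GENCODE annotation of GRCm38, *Osgin1* (ENSMUSG00000074063.10) spans chr8:119434124-119446256 on the plus strand, *Prdx1* (ENSMUSG00000028691.12) chr4:116685544-116700822 on the plus strand, *Txnrd1* (ENSMUSG00000020250.10) chr10:82833951-82897712 on the plus strand and *Srxn1* (ENSMUSG00000032802.8) chr2:152105516-152111376 on the plus strand. *Nfe2l2* (ENSMUSG00000015839.6) spans chr2:75675513-75704641 on the minus strand.

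In level, the members ranged from some of the most abundant transcripts of the cultures to one below the median gene. Per kilobase of exon, as the mean over the 16 libraries, *Hmox1* stood at 858.5 CPM per kb (rank 62 of 11675), *Sqstm1* at 761.5 (rank 71), *Txn1* at 343 (rank 138), *Prdx1* at 339.6 (rank 140), *Srxn1* at 247.5 (rank 189) and *Osgin1* at 216 (rank 213). *Txnrd1* followed at 112 CPM per kb, *Nfe2l2* at 41.0 and *Keap1* at 17.8. *Nqo1*, a quinone reductase that is often used as the readout of NRF2 activity, stood lowest at 4.29 CPM per kb, where 41.0% of the tested genes lay below it and the median gene was at 5.98. *Txn1* and *Prdx1* differed by less than their spread, since they were at 371 ± 18.9 and 360.5 ± 13.3 CPM per kb in the untreated hepatocytes (SD, n = 4), and so did *Hmox1* and *Sqstm1*, at 811 ± 64.7 and 769 ± 16.0. The 5 members whose relatives were compared lay above them: in untreated hepatocytes *Txnrd1* (125.5 ± 5.53 CPM per kb) exceeded *Txnrd2* (7.94 ± 0.269) and *Txnrd3* (7.43 ± 0.207), *Txn1* exceeded the mitochondrial *Txn2* (53.2 ± 3.74), and *Hmox1* exceeded *Hmox2* (20.8 ± 1.10). Among peroxiredoxins *Prdx1* was followed by *Prdx5* (111 ± 12.5 CPM per kb), *Prdx6* (68.9 ± 4.13) and *Prdx3* (59.9 ± 7.10), and among the factors *Nfe2l2* (43.5 ± 1.35) lay above *Nfe2l1* (33.5 ± 1.55), while *Nfe2l3* was at 0.0160 ± 0.0149.

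**Figure D1:**
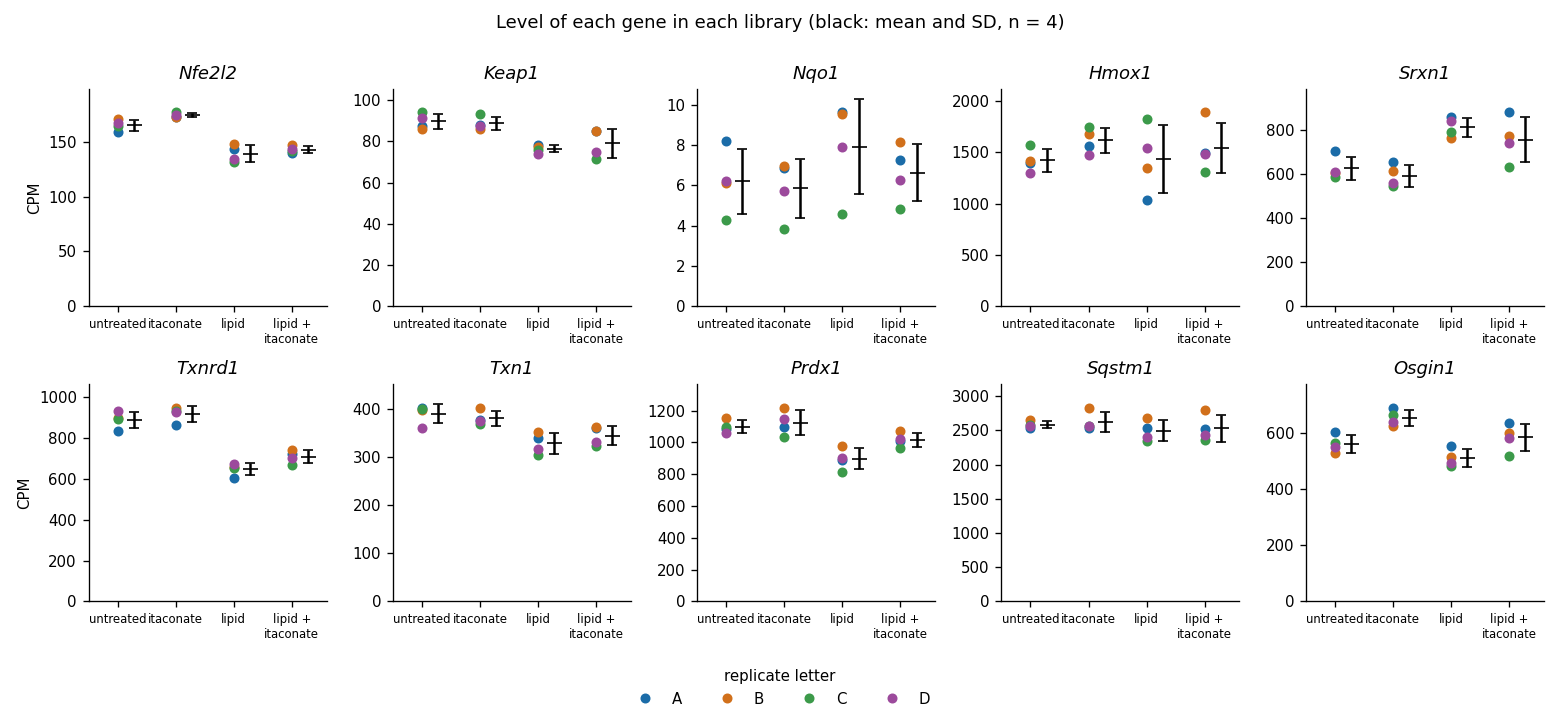
Level of the 10 genes in CPM (vertical axes, each starting at 0) in the 16 libraries, by treatment (horizontal axes) and coloured by replicate letter, with the mean and SD of each group (n = 4) in black. Osgin1 runs from 623 to 689 CPM with itaconate, above the 528 to 602 CPM of the untreated libraries, Txnrd1 is lower in all lipid libraries, and letter C is the lowest Nqo1 point of every group.

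Depth ran from 22346049 to 35512004 expected counts per library, with hepatocyte markers (10 of 10 at 1 CPM or more, summed level 33610 to 59620 CPM) far above those of macrophages (9 of 12, 157 to 328.5 CPM), endothelial cells (7 of 8, 19.4 to 40.5 CPM) and stellate cells (1 of 9, 16.4 to 26.1 CPM). Of the cholangiocyte list 2 of 6 genes, *Spp1* and *Sox9*, made up 336 to 1171 CPM, while *Krt7* and *Cftr* were at or near 0. Within the lipid + itaconate group, library B stood apart, since its 3 pairs differed by 106 to 147 times counting noise (chi-square per gene) and every other pair of a group by 64.5 or less. Libraries of the same letter deviated together from their group means, and the letter was a term of the test.

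The first question was whether itaconate alone changed these genes. It changed 1 of them: *Osgin1* was higher with itaconate, and the other 9 members did not pass the test. The 10 log2 fold changes had a median of 0.03, with 6 above and 4 below 0, and the median over all tested genes was -0.00. The test called 573 of the 11675 genes, a background of 4.91% (1.96% higher and 2.95% lower), and 1 member of 10 read against it is no result about the members as a group. In bulk RNA, fewer cells of a type and less RNA per cell cannot be told apart.

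*Osgin1*, an oxidative stress-induced growth inhibitor and a known NRF2 target, was at 602, 528, 564 and 549 CPM in untreated libraries A to D and at 689, 623, 662 and 638 CPM in the itaconate libraries. Every itaconate library lay above every untreated library, and the difference had nearly the same size in each letter, from 0.196 to 0.24 on the log2 scale. The fold change was 0.22 ± 0.048 on the log2 scale (SE), or 16.6% higher, with an adjusted p of 0.0156 in edgeR's quasi-likelihood test. Without the letter in the model the adjusted p was 0.171, and it was 0.0668 without untreated library B, 0.0514 without untreated library D and 0.0949 without itaconate library C, while the fold change stayed between 0.19 and 0.25 when each library was left out. *Nfe2l2* was the other member whose groups did not overlap, a pattern shared by 7.53% of all tested genes. It was at 159, 171, 164 and 167 CPM untreated and at 173, 173, 177 and 175 CPM with itaconate, a log2 fold change of 0.08 (95% interval -0.01 to 0.16) with an adjusted p of 0.271 in edgeR.

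*Hmox1* encodes heme oxygenase 1, which degrades heme to biliverdin, iron and carbon monoxide. Its levels were 1392, 1418, 1573 and 1300 CPM in untreated libraries A to D and 1560, 1678, 1749 and 1472 CPM with itaconate. It was higher in each of the 4 letters, as were *Osgin1* and *Nfe2l2*, and a same direction in all letters was found in 37.3% of all tested genes. The log2 fold change of 0.18 (95% interval -0.07 to 0.44) did not pass the test in the model of all 16 libraries (adjusted p = 0.400 in edgeR), but did with the 8 libraries of the comparison alone (adjusted p = 0.00218) and without the filter on low genes (0.00655). The *Hmox1* levels of the lipid libraries, which enter the shared estimate of spread, ran from 1032 to 1821 CPM. Why these fits differed was not tested.

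The remaining members lay close to 0 with itaconate. *Nqo1* was at 8.20, 6.14, 4.27 and 6.21 CPM in untreated libraries A to D and at 6.89, 6.985, 3.84 and 5.735 CPM with itaconate, lower in 3 letters and higher in B, and its log2 fold change was -0.08 (95% interval -0.31 to 0.14). The spread between letters was larger than this, since the geometric mean over the 4 treatments was 7.93 CPM in letter A and 4.37 CPM in letter C, a ratio of 1.82, while no other member but *Srxn1* (1.22) exceeded a ratio of 1.2. The intervals of the other 6 genes were narrow: *Srxn1* from -0.19 to 0.04, *Txn1* from -0.13 to 0.05, *Prdx1* from -0.06 to 0.12, *Txnrd1* from -0.05 to 0.14, *Keap1* from -0.14 to 0.10 and *Sqstm1* from -0.07 to 0.12 on the log2 scale.

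**Figure D2:**
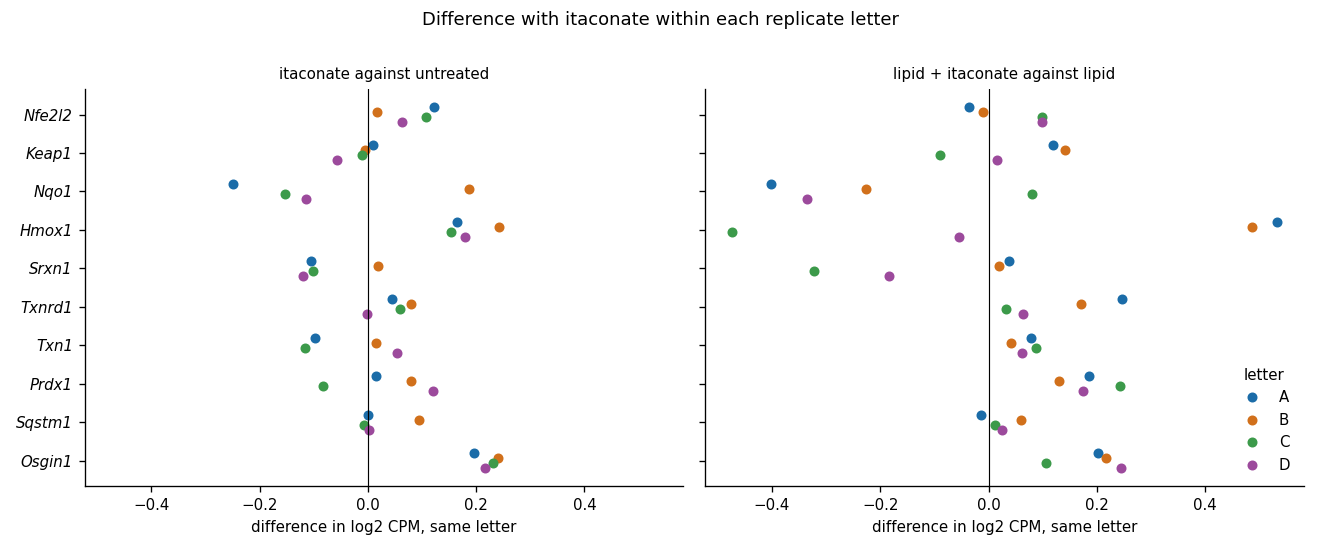
Difference in log2 CPM (horizontal axes) between the itaconate and the untreated library of the same letter (left) and between the lipid + itaconate and the lipid library of the same letter (right) for each gene, with 1 point per letter. Osgin1 is above 0 in all 8 points, Prdx1 in all 4 with lipid, and Hmox1 runs from -0.473 to 0.532 with lipid.

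The same question in lipid-treated hepatocytes gave 2 members of 10. *Prdx1* and *Osgin1* were higher in lipid + itaconate than in lipid alone, against a background of 2.58% of all genes called (1.32% higher and 1.26% lower). The members' log2 fold changes had a median of 0.06, with 8 above and 2 below 0, and the median over all tested genes was -0.00. No member's groups were free of overlap (5.82% of all genes were), and *Osgin1*, *Prdx1*, *Txn1* and *Txnrd1* were higher in all 4 letters, where 21.2% of all genes kept to a direction. Both calls were lost under several alternatives, as given with each gene.

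*Prdx1*, the major cytosolic peroxiredoxin, which reduces hydrogen peroxide with electrons from thioredoxin, was at 887, 978, 816.5 and 904 CPM in lipid libraries A to D and at 1009, 1071, 966 and 1020 CPM in lipid + itaconate. Only the lowest lipid + itaconate library, C, fell below the highest lipid library, B. Its log2 fold change was 0.18 ± 0.043 (SE), or 13.5% higher, with an adjusted p of 0.0350 in edgeR. The call was lost in 12 of 23 alternatives, among them the model without the letter (adjusted p = 0.358) and 10 of the 16 fits with a library left out (untreated A, itaconate A or B, any of the 4 lipid libraries, and lipid + itaconate A, B or D), and the adjusted p over all alternatives ran from 0.000554 to 0.358. Without lipid + itaconate library B, the one that stood apart, the adjusted p was 0.0602 and the fold change 0.19. *Prdx1* is the one member whose expected counts were not whole in any library, so part of its reads was shared with other genes or copies.

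*Osgin1* was at 553, 514, 481 and 491 CPM in lipid libraries A to D and at 636, 597, 518 and 581 CPM with itaconate added. Library C of lipid + itaconate lay within the range of lipid alone and the other 3 above it. The log2 fold change of 0.19 ± 0.048 (SE), or 14.4% higher, had an adjusted p of 0.0452 in edgeR, close to the threshold. It was lost in 16 of 23 alternatives, including all 13 fits that left out a library other than untreated C, itaconate C or lipid + itaconate C, with an adjusted p from 0.00421 to 0.341 over all of them, the highest without the letter and the lowest without lipid + itaconate library C. Without library B of that group the adjusted p was 0.131 at a fold change of 0.16.

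*Txnrd1* encodes the selenoprotein that reduces cytosolic thioredoxin. It was at 606, 658, 652 and 674 CPM in lipid libraries A to D and at 719, 741, 666 and 704 CPM with itaconate added, higher by 0.246 on the log2 scale in letter A and by 0.0315 in letter C. Its log2 fold change of 0.13 ± 0.044 (95% interval 0.04 to 0.22) had an adjusted p of 0.135 in edgeR, and 0.0299 without lipid + itaconate library C. Leaving out that library raised the number of members called from 2 to 3 and the number of all genes called from 301 to 891.

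*Hmox1* split by letter in the lipid cultures. It was at 1032, 1347, 1821 and 1537 CPM in lipid libraries A to D and at 1492, 1888, 1312 and 1480 CPM in lipid + itaconate, so that itaconate went with a log2 difference of 0.532 in A, 0.487 in B, -0.473 in C and -0.0542 in D. The interval of its fold change ran from -0.14 to 0.38 and includes both directions. *Nqo1* ran the other way from *Osgin1*, with a log2 fold change of -0.23 (95% interval -0.45 to -0.01), lower in letters A, B and D and higher in C, and did not pass the test (adjusted p = 0.257 in edgeR). The intervals of the others were -0.23 to 0.00 for *Srxn1*, -0.02 to 0.16 for *Txn1*, -0.05 to 0.12 for *Nfe2l2*, -0.07 to 0.17 for *Keap1* and -0.07 to 0.12 for *Sqstm1*.

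Whether the effect of itaconate differed between lipid-treated and other cultures was tested as an interaction, which called 1 gene of all tested (0.00857%) and no member. At an unadjusted p under 0.05 there were 1004 genes and 1 member, *Prdx1*, whose itaconate effect was larger by 0.15 ± 0.060 on the log2 scale with lipid (adjusted p = 0.504 in edgeR). DESeq2 called 36 genes, and edgeR without a filter on low genes called 231, and none of these was a member. For *Osgin1* the interaction was -0.03 (95% interval -0.17 to 0.12).

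**Figure D3:**
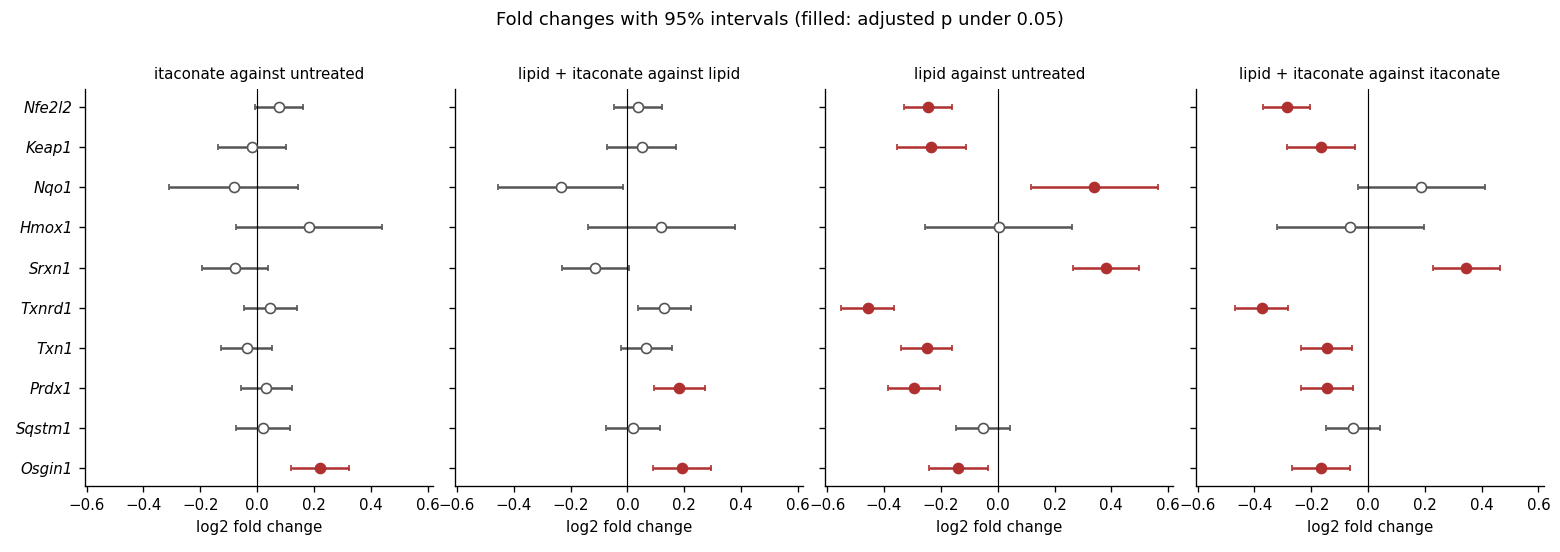
Log2 fold change of each gene (horizontal axes) with its 95% interval in 4 comparisons, filled where the adjusted p of edgeR's test is under 0.05. With itaconate, 1 gene is filled without lipid and 2 with lipid, whereas 8 are filled for lipid against untreated and 7 for lipid + itaconate against itaconate, with Srxn1 on the right and Txnrd1 farthest to the left.

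The lipid mixture changed most members, and not in one direction. Against untreated hepatocytes, 8 of the 10 passed the test: *Txnrd1*, *Prdx1*, *Txn1*, *Nfe2l2*, *Keap1* and *Osgin1* fell and *Srxn1* and *Nqo1* rose. Lipid also changed a large share of all genes, with a background of 47.5% (23.8% higher and 23.7% lower). The members' median log2 fold change was -0.19, and that over all tested genes was 0.00. The groups of 6 members did not overlap (32.5% of all genes), and 8 kept to 1 direction in all letters (58.5% of all genes). This comparison shares the untreated libraries with the first and the lipid libraries with the second, so a low or high library in a shared group moves both.

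The largest change was in *Txnrd1*. It fell from 836, 897, 894.5 and 929 CPM in untreated libraries A to D to the 606 to 674 CPM given above for lipid. Its level fell by 27.2%, a log2 fold change of -0.46 ± 0.044 (SE), with an adjusted p of 9.68e-07 in edgeR. The drop was nearly the same in each letter, from -0.464 to -0.448. Its partners in the same electron chain fell less. *Txn1*, cytosolic thioredoxin, was at 402, 398, 399 and 359.9 CPM untreated and at 340.0, 351, 304 and 317 CPM with lipid (log2 fold change -0.25 ± 0.042, adjusted p = 0.000195 in edgeR). *Prdx1* was at 1083, 1153, 1096 and 1056 CPM untreated, above every lipid library (log2 fold change -0.29 ± 0.043, adjusted p = 4.97e-05 in edgeR).

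*Srxn1*, the sulfiredoxin that restores peroxiredoxins after overoxidation, moved against them. It was at 704.5, 605, 586 and 610.3 CPM in untreated libraries A to D and at 859, 766, 790.3 and 842 CPM with lipid, with no overlap. The log2 fold change was 0.38 ± 0.055 (SE), or 30.3% higher, with an adjusted p of 4.48e-05 in edgeR. *Nqo1* rose by 0.34 ± 0.11 on the log2 scale (adjusted p = 0.0147 in edgeR), from the untreated levels given above to 9.63, 9.555, 4.58 and 7.90 CPM. Letter C was low in both groups, which overlapped, and each letter was higher with lipid. The adjusted p of *Nqo1* in edgeR was 0.0794 without untreated library B, 0.0530 without lipid library B and 0.270 without the letter in the model. Its counts were 102 to 256 per library, and its standard error was above those of the other members except *Hmox1*. The part of the low counts in that error was not tested.

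The sensor and the factor fell together with lipid. *Nfe2l2* went to 144, 148, 132 and 134 CPM, below all untreated libraries, with a log2 fold change of -0.25 ± 0.040 (adjusted p = 0.000127 in edgeR). *Keap1* was at 87.3, 86.1, 94.0 and 91.2 CPM untreated and at 78.1, 77.2, 76.0 and 74.0 CPM with lipid, also without overlap (log2 fold change -0.23 ± 0.057, adjusted p = 0.00328 in edgeR). Exons of *Keap1* overlap *Gm16754* on the opposite strand, and those of *Sqstm1* overlap *Mrnip*, where the libraries were made with a stranded kit but the strand setting of the counting is not stated, so the counts of these genes may include reads of their partners. *Osgin1* fell least, by -0.14 ± 0.048 (adjusted p = 0.0273 in edgeR), with overlapping groups. This call was lost in 7 of 23 alternatives, with an adjusted p of 0.120 without the letter in the model, 0.0619 without the filter on low genes, 0.0597 without untreated library A, 0.103 without C, 0.0589 without D, 0.0757 without lipid library C and 0.0763 without lipid library D.

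*Sqstm1* and *Hmox1* did not pass the test with lipid. *Sqstm1* encodes p62, an autophagy receptor that binds KEAP1 and is itself an NRF2 target, and ran from 2345 to 2831 CPM over all 16 libraries, with a log2 fold change of -0.05 (95% interval -0.15 to 0.04). For *Hmox1* the value was 0.00 with an interval from -0.25 to 0.26, and it was lower with lipid in letters A and B and higher in C and D. The coefficient of variation of *Hmox1* was 23.1% among the lipid libraries and 7.97% among the untreated ones.

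With itaconate in both arms, *Srxn1* again rose with lipid and *Txnrd1* again fell. In lipid + itaconate against itaconate 7 of 10 members passed the test, against 47% of all genes (23.5% in each direction), with a median log2 fold change of -0.14 (0.00 over all genes). *Srxn1* rose by 0.35 ± 0.055 (adjusted p = 0.000126 in edgeR), reaching 881, 776, 632 and 741 CPM in libraries A to D against 655, 613, 546 and 561.5 CPM with itaconate alone. *Txnrd1* fell by -0.37 ± 0.044, *Nfe2l2* by -0.29 ± 0.040, *Keap1* by -0.17 ± 0.056, *Osgin1* by -0.17 ± 0.048, *Txn1* by -0.15 ± 0.042 and *Prdx1* by -0.14 ± 0.043 on the log2 scale. Without overlap were the groups of 4 members (31.4% of all genes), namely *Nfe2l2*, *Keap1*, *Txnrd1* and *Txn1*, and 9 members kept to 1 direction in all letters (55.3% of all genes). *Keap1* differed between letters here, at 84.8 and 85.1 CPM in lipid + itaconate libraries A and B and at 71.4 and 74.8 CPM in C and D, and its call was lost without library C (adjusted p = 0.0959) or D (0.0829) of that group and without itaconate library C (0.0957) or D (0.0577). With only the 8 libraries of the comparison, *Keap1* (adjusted p = 0.0655) and *Prdx1* (0.0554) were not called. The call of *Osgin1* was lost without itaconate library C (adjusted p = 0.0541). Without the letter in the model, 4 members were called, and *Txn1* (adjusted p = 0.0677), *Prdx1* (0.0918) and *Osgin1* (0.0675) were not. *Nqo1* had a log2 fold change of 0.19 (95% interval -0.04 to 0.41).

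The wider pathway was followed in 7 gene lists, which include the members. They were drawn up from general knowledge but with earlier results of these data known, so the shares below are a description. Single-gene results were followed through the alternatives for the members only, so whether the calls of other list genes hold under them was not tested. Beyond the members they held 86 genes, of which 83 were tested. With itaconate alone 2 of the 83 were called higher and 3 lower (6.02%, all genes 4.91%), with itaconate added to lipid 5 higher and 0 lower (6.02%, all genes 2.58%), with lipid 16 higher and 38 lower (65.1%, all genes 47.5%), and with lipid in the presence of itaconate 15 higher and 27 lower (50.6%, all genes 47%). Their median log2 fold change was 0.00 for itaconate and 0.04 for itaconate with lipid, -0.10 for lipid and -0.05 for lipid with itaconate. At an unadjusted p under 0.05 in edgeR there were 23 of the 83 with itaconate alone (21.3% of all genes) and 27 with itaconate added to lipid (17.3%). None of the 83 passed the interaction in edgeR, while 11 had an unadjusted p under 0.05, as did 8.6% of all genes.

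Of the 18 tested partners and regulators of NRF2, 1 was called higher and 1 lower with itaconate. The list median was a log2 fold change of 0.10, and 9 of the 18 had an unadjusted p under 0.05 in edgeR, against 21.3% of all genes. *Maff*, a small MAF protein with which NRF2 pairs on DNA, was at 169 ± 4.07 CPM untreated and rose to 202 ± 4.47 CPM (log2 fold change 0.26, adjusted p = 0.0311 in edgeR, SD over 4 libraries). *Dpp3*, a peptidase that binds KEAP1, fell from 69.7 ± 4.88 to 61.4 ± 2.35 CPM (log2 fold change -0.18, adjusted p = 0.0159). With lipid 3 genes of the list rose and 7 fell, *Maff* and *Mafk* the most, by -0.58 and -0.53, so that *Maff*, *Mafk* and *Nfe2l2* were all lower. No gene of the list passed for itaconate added to lipid, where 1 had an unadjusted p under 0.05 (17.3% of all genes) and the median was 0.02.

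Of the 21 thioredoxin and peroxiredoxin genes none was called with itaconate alone in edgeR. An unadjusted p under 0.05 was found for 3 of them and for 21.3% of all genes. With itaconate added to lipid 2 were higher, *Prdx1* and *Glrx*, and 8 of the 21 had an unadjusted p under 0.05, against 17.3% of all genes. *Glrx*, the cytosolic glutaredoxin, was at 53.5 ± 7.55 CPM with lipid and 70.3 ± 7.80 CPM with both (log2 fold change 0.40, adjusted p = 0.0175). With lipid 5 of the list rose and 9 fell. *Txnip*, which binds and inhibits thioredoxin, rose the most, from 26.1 ± 4.47 to 139 ± 17.5 CPM (log2 fold change 2.44, adjusted p = 3.03e-08), followed by *Nxn*, the thioredoxin-like nucleoredoxin, with 0.57 at a level of 2.98 to 4.42 CPM.

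Among the 7 tested glutathione genes, *Gclc* and *Gsr* were higher with itaconate added to lipid. *Gclc*, the catalytic subunit of the enzyme that limits glutathione synthesis, was at 570.0 ± 74.9 CPM with lipid and 756 ± 39.0 CPM with both (log2 fold change 0.41, adjusted p = 0.0278), and *Gsr*, glutathione reductase, at 391 ± 23.5 and 441 ± 22.4 CPM (0.17, adjusted p = 0.0326). *Slc7a11*, the cystine importer, was lower with itaconate alone (log2 fold change -0.26, adjusted p = 0.0317), with untreated libraries at 53.2 to 85.6 CPM and itaconate libraries at 42.9 to 68.2 CPM. With lipid 2 of the list rose and 3 fell, the largest being *Chac1*, which degrades glutathione (0.74), and *Gclc* (-0.67). All 6 genes listed for NADPH production were tested, though *Tkt* and *Taldo1* among them are pentose phosphate enzymes that do not make NADPH themselves. With lipid 5 of the list fell, *Tkt* included, and 0 rose. The isocitrate dehydrogenase *Idh1* fell the most (-0.69) and then *G6pdx* (-0.34). *Taldo1*, transaldolase, was the only one called with itaconate (-0.20, adjusted p = 0.0150 in edgeR).

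*Gsta4*, a glutathione S-transferase that conjugates products of lipid peroxidation, was the one gene of the 20 for detoxification that was called in both itaconate comparisons. It was at 226 ± 10.7 CPM untreated and 254 ± 12.6 CPM with itaconate (log2 fold change 0.17, adjusted p = 0.0281), and at 201 ± 3.48 CPM with lipid and 258 ± 5.04 CPM with both (0.36, adjusted p = 0.000343). The lipid and lipid + itaconate libraries did not overlap. With lipid 3 genes of this list rose and 9 fell, the largest being *Gstm2* (-0.47) and *Gstm4* (0.45), whose sequences are close enough that reads may be shared among the family. Of the 8 heme and iron genes, only *Slc40a1*, the iron exporter ferroportin, passed an itaconate comparison (log2 fold change 0.21 with lipid, adjusted p = 0.0449). Lipid lowered 4 of them, with *Slc40a1* (-0.45) and *Fech* (-0.39) first, and raised 1. Of the 11 autophagy receptors and partners none was called with itaconate in either setting in edgeR. An unadjusted p under 0.05 was found for 1 with itaconate alone (21.3% of all genes) and for 5 with lipid present (17.3%). With lipid 3 rose and 6 fell, led by *Map1lc3b* (-0.35) and *Optn* (-0.32).

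**Figure D4:**
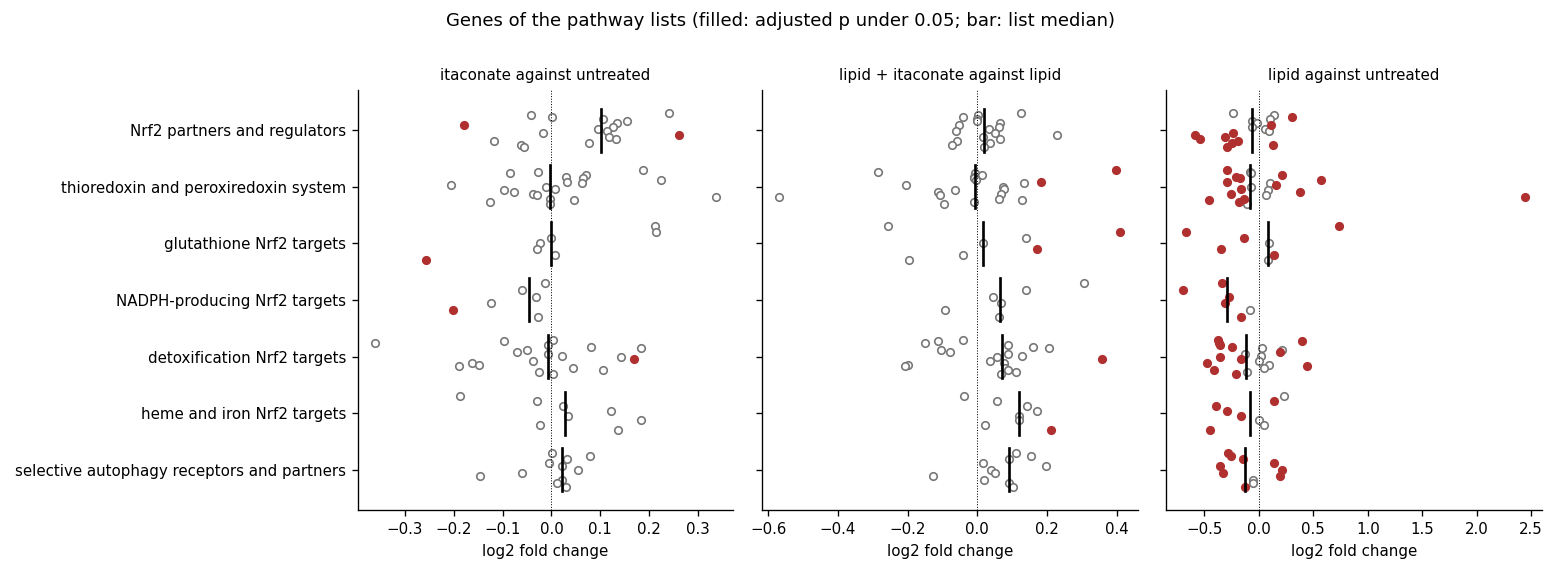
Log2 fold change (horizontal axes, which differ in range) of each tested gene of the 7 lists in 3 comparisons, with 1 point per gene, filled where the adjusted p of edgeR's test is under 0.05, and the list median as a bar. Few points are filled for itaconate. With lipid, filled points lie on both sides of 0 in all lists but the one labelled NADPH-producing, which includes Tkt and Taldo1. There the 5 filled points lie below 0.

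The genes whose levels ran most like a member were sought among the 9645 genes that averaged 5 CPM or more, by Pearson's r of log2 CPM over the 16 libraries. The libraries share treatments, letters and cultures, so r is a description. *Txnrd1* was most like *Pdk4* (r = 0.983), *Ugt2b36* (0.978) and *Slc25a5* (0.977), and *Srxn1* like *Cct4* (0.963). *Nfe2l2* was most like *Luc7l* (0.975), *Keap1* like *Nop53* (0.978), *Prdx1* like *Esd* (0.955), *Nqo1* like *H2-Q1* (0.949), *Osgin1* like *Nectin3* (0.924), *Hmox1* like *Aldoa* (0.914) and *Sqstm1* like *Zfand5* (0.883). No member was among the 3 genes most like any other member.

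Markers of other cell types also moved with treatment. Most of the macrophage sum was *Cd68*, a lysosomal protein, which was called lower with itaconate alone (log2 fold change -0.24) and higher with lipid (0.43), while most of the list did not follow it. With itaconate alone, where the macrophage sum was 157 to 243.5 CPM against 177.5 to 291 CPM untreated, *Lyz2* was called higher (0.50), and the median of the 9 tested genes was 0.04. With lipid, where the sum was 232 to 328.5 CPM, 5 of the 9 were called lower and 1 higher (all genes 23.7% lower and 23.8% higher). The median log2 fold change was -0.44, and among those called lower were *Adgre1* (-0.82), *C1qa* (-0.66), *C1qc* (-0.85) and *Marco* (-0.76). In lipid + itaconate against lipid the median was -0.40, and 1 of the 9 (*C1qb*, -0.65) was called lower and none higher (all genes 1.26% lower). With lipid in the presence of itaconate 8 were called lower and 1 higher (all genes 23.5% in each direction).

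The endothelial list summed to 24.7 to 38.3 CPM in untreated and 19.4 to 28.5 CPM in itaconate libraries. It was at 33.5 to 40.5 CPM with lipid and 23.8 to 32.2 CPM with both, without overlap. Its 7 tested genes had a median log2 fold change of -0.48 in each itaconate comparison. In edgeR 1 was called lower for itaconate alone and 0 when lipid was present. In each of the 2 comparisons 4 had an unadjusted p under 0.05, against 21.3% of all genes for itaconate alone and 17.3% with lipid present. The cholangiocyte sum was 336 to 609 CPM with lipid against 600.3 to 1171 CPM untreated, and the hepatocyte sum 38050 to 49820 CPM against 43620 to 59110 CPM. The part of these shifts in the members' changes, those of *Prdx1* and *Osgin1* included, was not tested.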

How the data were processed

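Bulk RNA-seq of 16 libraries of primary mouse hepatocytes was used. The authors demultiplexed with bcl2fastq 2.20, trimmed with Cutadapt 1.18, aligned to mm10 with STAR 2.7.0f, checked alignments with Picard 2.18.26 and deposited gene-level expected counts from RSEM 1.3.1, without normalization or batch removal. An expected count divides a read among the genes it fits, and 5.41% of values were not whole. The authors' own filter, batch removal and tests came after these values and were not used.

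Counts were rounded to whole numbers. The tools were DESeq2 1.42.0, limma 3.58.1 and edgeR 4.0.16, in R 4.3.3. Genes that averaged less than 1 CPM were dropped, TMM normalization was applied, and edgeR's quasi-likelihood test was fitted to all 16 libraries with treatment and replicate letter as terms, with Benjamini-Hochberg adjustment over 11675 genes and a threshold of 0.05. Log2 CPM used a prior count of 0.5. Intervals are 95% intervals of the fit. The letter was kept because all 24 correlations between the deviations of same-letter libraries were over 0.1 (0.144 to 0.469), whereas 72 pairs with other letters had a median of -0.114. No library was a duplicate of another of its treatment, with differences of at least 10 times counting noise in the 24 pairs. Pairs from different treatments were not compared in this way. Depth was 22346049 to 35512004 expected counts, and *Nqo1* had the lowest counts of the members (102 to 256).

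The 10 members and the gene lists were chosen with earlier results of these data known. Named besides the members are list genes called in an itaconate comparison or the interaction, and for each list the 2 with the largest change among those called for lipid. Exon lengths are from GENCODE (GRCm38). The scripts were tested on simulated data. Alternatives were no letter, RLE normalization, 2 other filters, DESeq2, limma-trend, only the 8 libraries compared and each library left out. The genes most like *Txn1* are not reported here.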

Additional observations from a re-analysis of the deposited data

Results flagged for a closer look

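Of the 40 groups of 4 libraries looked at (10 genes in 4 treatments), 2 held a library whose gap to the nearest other exceeded Dixon's 95% critical value for 4 samples, where chance flags about 1 in 20 groups. *Txn1* was at 359.9 CPM in untreated library D, with the other untreated libraries at 398 to 402 CPM (gap 0.894 of the range). *Sqstm1* was at 2831 CPM in itaconate library B, with the others at 2527 to 2568 CPM (gap 0.865 of the range).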

How the results depend on the processing

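Over 50 single-gene results and 23 alternatives, 1051 of 1139 values kept direction and side of the threshold, 52 lost a call, 3 gained one and 33 turned in sign, none of them a call. The values that kept their side include those of results that were not calls. The itaconate calls were less stable: that of *Osgin1* was lost in 4 of 23 alternatives without lipid and 16 with lipid, and that of *Prdx1* with lipid in 12. Without the replicate block the number of members called was 0 for itaconate, 0 for itaconate with lipid, 6 for lipid and 4 for lipid with itaconate, and all genes called for the first 2 were 23 and 9. For itaconate, 2 members were called with no filter and 2 with only the 8 libraries compared. For itaconate with lipid, 1 was called with filterByExpr and 0 with only the 8 libraries. Leaving out 1 library gave 0 to 1 members for itaconate (0 without untreated B, untreated D or itaconate C), 0 to 3 for itaconate with lipid, 7 to 8 for lipid and 5 to 7 for lipid with itaconate. The lipid calls of *Srxn1*, *Txnrd1*, *Txn1*, *Prdx1*, *Nfe2l2* and *Keap1* held in all 23 alternatives. *Hmox1* with lipid, at 0.00, turned to -0.0025 under RLE, -0.0026 in DESeq2, -0.013 in limma-trend and -0.0083 with only the 8 libraries, and ran from -0.12 to 0.13 as libraries were left out. With a library left out, signs also turned for itaconate in *Keap1* (-0.050 to 0.015), *Txn1* (-0.061 to 0.0024) and *Sqstm1* (-0.0061 to 0.045), for itaconate with lipid in *Keap1* (-0.00083 to 0.11), *Hmox1* (-0.0086 to 0.26) and *Sqstm1* (-0.0039 to 0.040), for lipid with itaconate in *Hmox1* (-0.17 to 0.070), and for the interaction in *Hmox1* (-0.19 to 0.073), *Srxn1* (-0.075 to 0.019), *Sqstm1* (-0.030 to 0.026) and *Osgin1* (-0.063 to 0.021). The causes were not tested. The number of all genes called ranged from 23 to 1859 for itaconate and from 9 to 891 for itaconate with lipid. Of the members, *Nqo1* had the lowest counts.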
